A study of Mus musculus with 12 samples.

Results

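The genes described are 2 bone morphogenetic protein (BMP) ligands, Bmp2 and Bmp4, and 8 genes that BMP signalling is known to control: Id1, Id2, Id3, Id4, Msx1, Msx2, Smad6 and Smad7. They were taken by gene symbol from the 30702 genes that the array annotation names, and each of the 10 had 1 transcript cluster (the array's unit for 1 locus), so that all 10 were measured. The RNA was that of mouse fetal gonads collected 14.5 days post coitum, hybridised to the 1-colour Affymetrix Mouse Transcriptome Array 1.0 and read here on a log2 scale. Each of the 12 arrays held the RNA of 1 pair of gonads freed of the mesonephros. XY control and XX control embryos were Rosa26+/+ with Sf1-Cre+/Tg. XY FOXL2+ embryos carried Rosa26-CAG-LSL-Foxl2+/f together with Sf1-cre+/Tg, so that Cre, made where Sf1 (Nr5a1) is active, removes a stop cassette and lets the CAG promoter drive Foxl2. All 3 groups therefore carried the Cre transgene, on a mixed 129Sv and C57Bl/6J background, with 4 arrays in each group. The study asked what FOXL2, a transcription factor known from ovarian granulosa cells, does when it is made in the somatic cells of a fetal testis.

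BMP ligands are secreted proteins that bring type I and type II receptor kinases together on the target cell. The receptors phosphorylate SMAD1, SMAD5 and SMAD9, which enter the nucleus with SMAD4 and switch on a small set of early target genes, the ID genes first among them. ID proteins have a helix-loop-helix but no DNA-binding region, and hold E proteins such as TCF3, TCF4 and TCF12 away from DNA. MSX1 and MSX2 are homeobox transcription factors, and SMAD6 and SMAD7 are inhibitory SMADs that dampen the pathway which induces them. In the fetal ovary Bmp2 is known as a gene of the pre-granulosa cells, and MSX1 and MSX2 as factors of germ cells entering meiosis.

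Promoter sequence is shown for the target genes whose courses differed in the arrays: Id2 and Id3, which rose in XY FOXL2+ gonads, Id4, which did not pass in any comparison, and Msx1 and Msx2, which were high in XX gonads. Each line gives the 250 bases before the gene's start, 5′ to 3′ on the gene's strand, from RefSeq (GRCm38.p6). Capitals mark 2 motifs searched on both strands, GGCGCC, the GC box of BMP-responsive elements, and GTCT (AGAC on the other strand), the SMAD box. The positions are chr12:25096093-25096342 on the minus strand for Id2, chr4:136143572-136143821 on the plus strand for Id3, chr13:48260866-48261115 on the plus strand for Id4, chr5:37824586-37824835 on the minus strand for Msx1 and chr13:53472781-53473030 on the minus strand for Msx2.
Id2: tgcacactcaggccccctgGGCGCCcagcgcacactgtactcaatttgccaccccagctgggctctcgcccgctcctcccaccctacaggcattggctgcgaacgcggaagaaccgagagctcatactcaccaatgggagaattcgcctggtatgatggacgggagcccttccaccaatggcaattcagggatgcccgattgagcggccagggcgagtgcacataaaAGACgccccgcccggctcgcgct
Id3: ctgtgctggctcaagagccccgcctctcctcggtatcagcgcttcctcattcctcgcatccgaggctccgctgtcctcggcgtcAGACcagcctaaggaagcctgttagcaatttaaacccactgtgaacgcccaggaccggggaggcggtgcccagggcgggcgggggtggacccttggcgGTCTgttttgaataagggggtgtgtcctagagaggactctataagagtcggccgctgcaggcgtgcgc
Id4: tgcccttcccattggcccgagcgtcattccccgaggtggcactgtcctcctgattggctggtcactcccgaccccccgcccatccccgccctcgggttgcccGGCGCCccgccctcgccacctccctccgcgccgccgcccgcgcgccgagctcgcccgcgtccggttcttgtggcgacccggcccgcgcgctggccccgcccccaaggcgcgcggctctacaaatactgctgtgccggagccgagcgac
Msx1: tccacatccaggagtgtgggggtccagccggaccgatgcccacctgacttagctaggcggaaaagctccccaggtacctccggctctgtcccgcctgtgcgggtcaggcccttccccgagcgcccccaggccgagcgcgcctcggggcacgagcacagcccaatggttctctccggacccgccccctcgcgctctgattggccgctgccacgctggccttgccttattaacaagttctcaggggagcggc
Msx2: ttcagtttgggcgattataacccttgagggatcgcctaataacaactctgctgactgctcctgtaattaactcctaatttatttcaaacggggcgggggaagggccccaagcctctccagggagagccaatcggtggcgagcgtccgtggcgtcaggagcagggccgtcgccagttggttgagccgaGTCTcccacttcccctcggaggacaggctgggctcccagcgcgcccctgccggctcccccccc
GGCGCC stood in the windows of Id2 and Id4, and in 9.59% of the 32851 promoter windows of this length in the table. GTCT stood once in Id2 and Msx2 and 2 times in Id3, and in 82.9% of all windows. The forkhead core TGTTTAC, the kind of site that FOX proteins bind, was searched as well. It stood in none of the windows of the 7 members searched (those shown, Bmp4 and Smad6), and in 3.17% of all windows. No window of Bmp2, Id1 or Smad7 was searched. The letters are a description of these windows and the matches are not shown to be sites.

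The tissue labels were checked against marker genes. Sertoli cell markers (6 genes, mean log2 signal) read 10.74 to 11.04 on XY control arrays, 7.84 to 9.63 on XY FOXL2+ and 6.97 to 7.07 on XX control, and fetal granulosa cell markers (6 genes) read 7.39 to 7.46, 8.05 to 10.04 and 10.17 to 10.52 in the same order. The granulosa list holds Foxl2, which the transgene drives, so part of its rise in XY FOXL2+ was set by the design. Of its other genes, Fst and Runx1 were higher in XY FOXL2+ than in XY controls at an adjusted p under 0.05. Rspo1, Wnt4 and Irx3 were not. For Foxl2 the XY control arrays read 5.07 to 5.55, the XY FOXL2+ arrays 6.72 to 8.62 and the XX control arrays 7.14 to 8.08. Over all 65956 clusters, XY FOXL2+ replicate 1 stood apart on the second principal component (14.1% of the variance), and replicates 3 and 4 stood apart together on the third (10.5%). Replicates 1 and 2 lay toward the XX controls on the first component (51.5%), at -20.3 and -39.1 against -61.6 to -55.8 in XX and 59.9 to 66.3 in XY controls, while replicates 3 and 4 lay at 21.3 and 23.1. The array's 23 background control probe sets had medians of 3.99 to 4.17. Genes that XX embryos lack, the Y-linked Uty, Kdm5d and Eif2s3y, still read 5.85 to 6.39 there, well above those sets. Signals up to 6.39 may thus be background, and folds that start from them are given as lower bounds on this choice. In whole gonads, fewer cells of a type and less RNA per cell cannot be told apart.

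In XY FOXL2+ gonads Bmp2, Id2 and Id3 rose and Smad7 fell against XY controls, while Bmp4, Id1, Id4, Msx1, Msx2 and Smad6 did not pass the test. A gene is called here at an adjusted p under 0.05 in limma, with adjustment over all clusters. These 3 of 10 higher and 1 of 10 lower stand beside 2.46% of all clusters called higher and 4.67% called lower in this comparison. In XX against XY controls 6 members were higher (Bmp2, Id1, Id2, Id3, Msx1 and Msx2) and 2 lower (Bmp4 and Smad7), beside 7.17% and 10.2% of all clusters. Between XY FOXL2+ and XX controls Bmp4 was higher and Bmp2, Id1, Msx1 and Msx2 were lower in XY FOXL2+, beside 2.87% and 2.64% of all clusters. The median difference of the 10 members was 0.39, 0.80 and -0.17 in the 3 comparisons, against 0.003, -0.033 and 0.032 over all clusters (log2). Each member called had groups that did not overlap, and no other member had. Over all clusters groups did not overlap in 5.23% (higher) and 6.97% (lower) with FOXL2, in 10.5% and 14.8% between the sexes, and in 6.63% and 4.82% between XY FOXL2+ and XX controls. The members were chosen with earlier results of these data known, so these counts are a description. The comparisons share their control arrays and are given side by side.

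**Figure D1:**
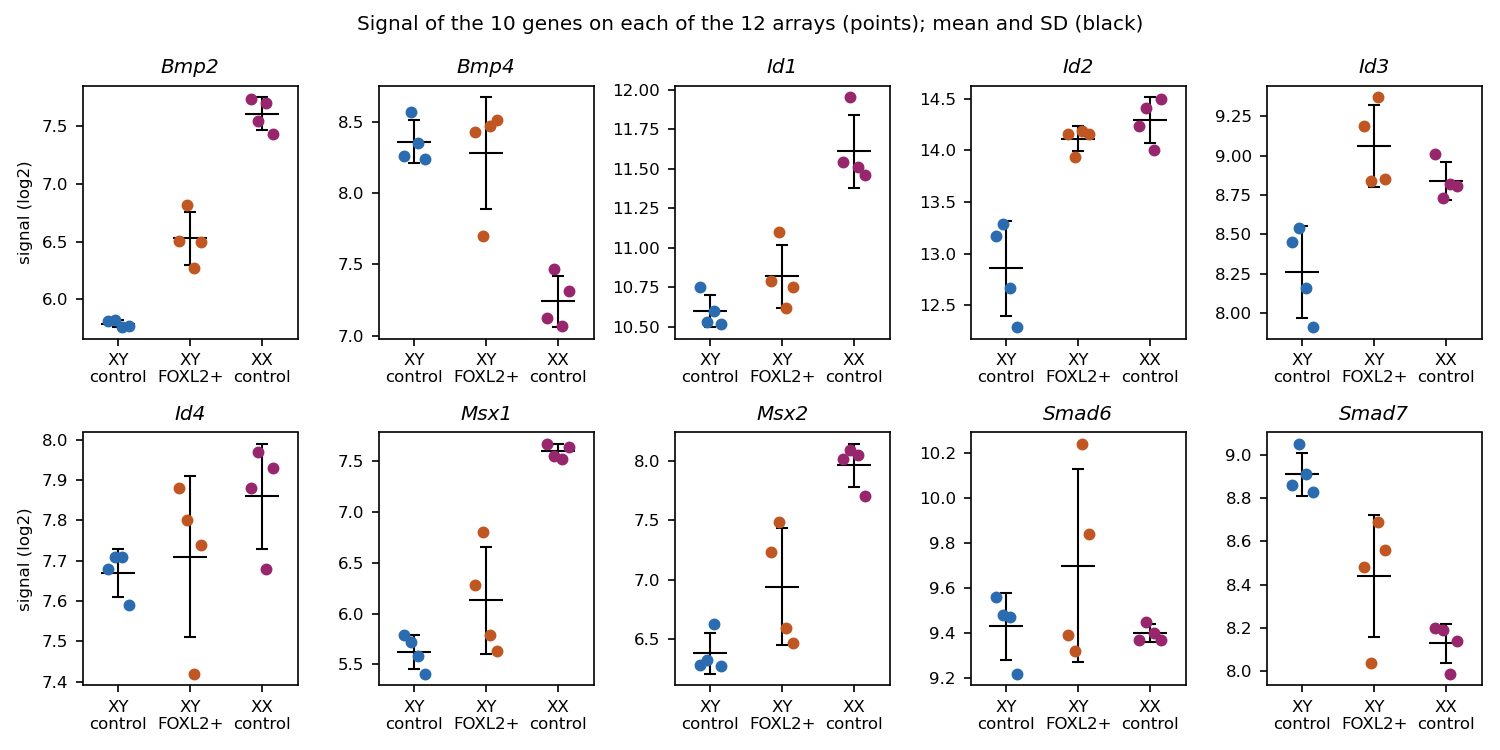
Signal (log2, vertical axis, a separate range in each panel) of each of the 10 genes, with XY control, XY FOXL2+ and XX control gonads from left to right. Points are the 4 arrays of a group and black marks the mean with its SD; the XY FOXL2+ arrays of Bmp2 lie between both control groups without overlap, and those of Id2 lie above all XY controls.

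Bmp2, the ligand of pre-granulosa cells, separated all 3 groups. It read 5.81, 5.82, 5.76 and 5.77 on the XY control arrays, 6.51, 6.82, 6.27 and 6.50 on XY FOXL2+, and 7.74, 7.55, 7.70 and 7.43 on XX control. No array of one group reached into the range of another. XY controls averaged 5.79 ± 0.03, XY FOXL2+ averaged 6.53 ± 0.23 and XX controls averaged 7.61 ± 0.14 (SD, n = 4). The difference of XY FOXL2+ from XY controls was 0.73 (SE 0.11, limma adjusted p = 0.00114), that of XX from XY controls 1.81 (adjusted p = 4.2e-07) and that of XY FOXL2+ from XX controls -1.08 (adjusted p = 0.000188). The XY control values lie at the level where silent genes read, so the 1.66-fold rise with FOXL2 and the 3.52-fold sex difference are lower bounds. XY FOXL2+ replicate 3 (6.27) lies at that level too, and replicates 1 and 4 (6.51 and 6.50) lie just above it.

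Bmp4, a close relative of Bmp2 that signals through the same receptors, ran the other way between the sexes and did not follow the ovary in XY FOXL2+. XY controls read 8.26, 8.57, 8.35 and 8.24, XY FOXL2+ read 8.43, 7.70, 8.47 and 8.51, and XX controls read 7.12, 7.47, 7.07 and 7.31. In XY FOXL2+ replicates 1, 3 and 4 lay within the XY control range and replicate 2 lay between the control groups. Bmp4 was 2.16-fold lower in XX than in XY controls (-1.11, SE 0.17, adjusted p = 0.000434). XY FOXL2+ differed from XY controls by -0.08 (SE 0.17, adjusted p = 0.85) and was 2.05-fold above XX controls (1.03, adjusted p = 0.00349). Without XY FOXL2+ replicate 2 the difference from XY controls was 0.11.

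Id2 and Id3 rose to levels that overlapped those of the ovary. Id2 read 13.17, 13.29, 12.67 and 12.29 on XY control arrays, 14.16, 13.93, 14.19 and 14.16 on XY FOXL2+, and 14.23, 14.41, 14.0 and 14.50 on XX control. The XY FOXL2+ arrays all lay above the XY controls and overlapped the XX controls. Against XY controls this was a 2.38-fold rise (1.25, SE 0.19, adjusted p = 0.00142), beside 1.43 for the sex difference (adjusted p = 0.000178). The difference between XY FOXL2+ and XX controls was -0.18 (SE 0.19, adjusted p = 0.695). XY controls were the most spread group, with an SD of 0.46 against 0.12 in XY FOXL2+ and 0.22 in XX controls.

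Id3 read 8.45, 8.54, 8.16 and 7.91 on XY control arrays, 9.19, 8.84, 9.37 and 8.85 on XY FOXL2+, and 9.01, 8.73, 8.82 and 8.81 on XX control. As with Id2, every XY FOXL2+ array lay above every XY control, and replicates 1 and 3 lay above all XX controls too. The rise over XY controls was 0.80 (SE 0.15, adjusted p = 0.00688, 1.74-fold) and the sex difference 0.58 (adjusted p = 0.0193), while XY FOXL2+ and XX controls differed by 0.22 (SE 0.15, adjusted p = 0.5). The sex difference of Id3 did not pass without XY control replicate 3, XY control replicate 4 or XX control replicate 1 (adjusted p from 0.0577 to 0.0617). In XY controls the arrays kept the same order for Id2 and Id3, with replicate 2 highest and replicate 4 lowest.

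Id1 differed between the sexes, and XY FOXL2+ did not pass against XY controls. XY controls read 10.75, 10.53, 10.60 and 10.52, XY FOXL2+ read 10.79, 11.10, 10.62 and 10.75, and XX controls read 11.54, 11.95, 11.51 and 11.46. All XX arrays lay above all others, and among XY FOXL2+ arrays replicate 2 stood nearest to them. The sex difference was 1.02 (SE 0.13, adjusted p = 0.000125), the difference between XY FOXL2+ and XY controls 0.22 (adjusted p = 0.396) and that between XY FOXL2+ and XX controls -0.80 (adjusted p = 0.00331). For Id4 the XY controls lay between 7.59 and 7.71, XY FOXL2+ between 7.42 and 7.88 and XX controls between 7.68 and 7.97. Its groups overlapped in all 3 comparisons and its differences were 0.04, 0.19 and -0.15 (SE 0.10 each; adjusted p from 0.262 to 0.894).

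**Figure D2:**
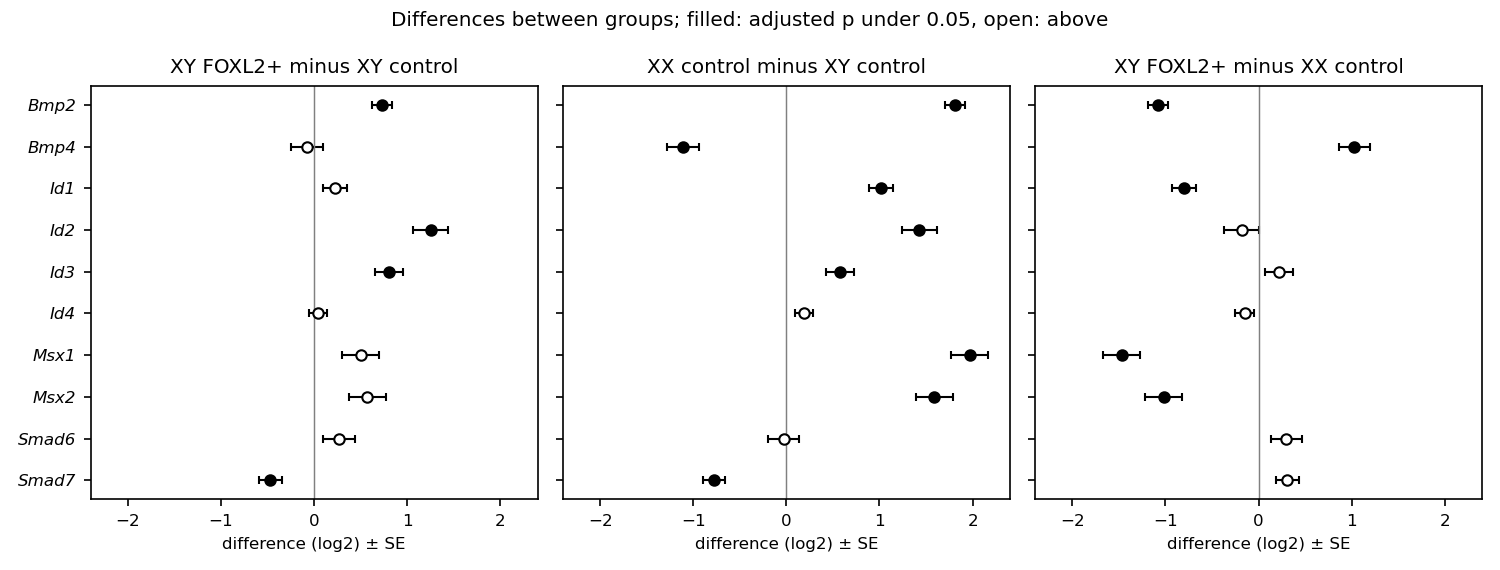
Difference between group means (log2, horizontal axis) of the 10 genes in the 3 comparisons, with the standard error from limma as bars. Filled points have an adjusted p under 0.05; in XY FOXL2+ minus XY control these are Bmp2, Id2, Id3 and Smad7, and in XY FOXL2+ minus XX control Id2 and Id3 lie near 0.

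Among the ID genes, the courses of Id2 and Id1 thus differed in the direct comparison of XY FOXL2+ with XX controls, which Id1 passed and Id2 did not; the difference between the genes was not tested. Endothelial cells express Id1 and Id3, so their markers are given beside these values. Of 8 endothelial markers measured, 3 were higher in XY FOXL2+ than in XY controls (Emcn, Cldn5 and Ramp2) and none lower. Their mean signal was 9.73 to 10 on XY control arrays, 10.04 to 10.30 on XY FOXL2+ and 9.63 to 9.94 on XX control. Of 6 macrophage markers 4 were higher in XY FOXL2+ (Adgre1, Csf1r, C1qb and Mrc1), with means of 7.08 to 7.33, 7.51 to 7.65 and 7.17 to 7.41. Neither list overlapped between XY FOXL2+ and XY controls, and their part in the rise of Id2 and Id3 was not tested.

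Msx1 and Msx2 were high in XX gonads and split the XY FOXL2+ arrays. Msx1 read 5.79, 5.72, 5.58 and 5.41 in XY controls, 6.28, 6.80, 5.79 and 5.63 in XY FOXL2+, and 7.67, 7.55, 7.52 and 7.64 in XX controls. In XY FOXL2+ replicates 1 and 2 lay above all XY controls, and replicates 3 and 4 lay at the XY control level. Of these arrays only replicate 2 read above 6.39, the level up to which signals may be background. Msx2 read 6.28, 6.32, 6.63 and 6.27 in XY controls, 7.23, 7.48, 6.59 and 6.47 in XY FOXL2+, and 8.01, 8.09, 8.05 and 7.70 in XX controls, with the same split of the XY FOXL2+ arrays.

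The sex difference was at least 3.92-fold for Msx1 (1.97, SE 0.20, adjusted p = 2.54e-05) and at least 3.0-fold for Msx2 (1.59, SE 0.20, adjusted p = 0.000108), since both start from the level where silent genes read. Against XY controls XY FOXL2+ differed by 0.50 in Msx1 (SE 0.20, adjusted p = 0.179) and by 0.57 in Msx2 (SE 0.20, adjusted p = 0.116), and neither passed. Both were below XX controls, by -1.47 (adjusted p = 0.00124) and -1.02 (adjusted p = 0.00954). Without XY FOXL2+ replicate 4 Msx2 passed against XY controls (0.72, adjusted p = 0.0355). Without replicates 3 and 4, left out because they stood apart together on the third component and chosen after seeing the data, Msx1 (0.92, adjusted p = 0.00181) and Msx2 (0.98, adjusted p = 0.000985) both passed, and 5 members were then higher. Over all clusters the share called higher was 4.63% under the same omission, against 2.46% with all arrays. Those 2 arrays also hold the lowest Msx values of their group, so leaving them out raises its mean. Replicate 1, which stood apart on the second component, was kept in that fit. Over all alternatives the difference from XY controls ran from 0.27 to 0.92 for Msx1 (limma adjusted p up to 0.346). For Msx2 it ran from 0.32 to 0.98 (up to 0.39).

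Meiotic germ cell markers, which move with the Msx genes between the sexes, are given beside them. All 6 meiotic markers passed as higher in XY FOXL2+ than in XY controls. Their means were 7.58 to 7.93 in XY controls, 12.52 to 12.70 in XX controls, and 10.52, 12.72, 11.33 and 11.25 on XY FOXL2+ replicates 1 to 4. Among XY FOXL2+ arrays replicate 1 was lowest in the meiotic markers and the second highest in Msx1 and Msx2. The fetal granulosa cell markers read 9.29, 10.04, 8.14 and 8.05 on XY FOXL2+ replicates 1 to 4, in the same array order as Msx1 and Msx2. This list holds Foxl2 itself, so its order is not independent of that of Foxl2 given below. General germ cell markers (6 genes) read 11.97 to 12.65 on XY control arrays, 11.02 to 12.18 on XY FOXL2+ and 11.50 to 12.14 on XX control. The part of these cell types in the Msx values was not tested.

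The inhibitory SMADs parted. Smad7 read 8.86, 9.05, 8.91 and 8.83 in XY controls, 8.48, 8.04, 8.69 and 8.56 in XY FOXL2+, and 8.20, 8.19, 7.99 and 8.14 in XX controls. Every XY FOXL2+ array lay below every XY control, and replicate 2 lay at the XX level. Smad7 fell by 0.47 on the log2 scale (SE 0.12, adjusted p = 0.0396, 1.38-fold), beside a sex difference of -0.78 (adjusted p = 0.000694). The fall with FOXL2 missed the threshold without any single one of the 4 XY control or 4 XX control arrays or of XY FOXL2+ replicates 1 and 2, with adjusted p from 0.0516 to 0.105, and its adjusted p was 0.121 with only the 2 groups compared and 0.116 after quantile normalization. Against XX controls XY FOXL2+ differed by 0.31 (adjusted p = 0.193), and by 0.45 without XY FOXL2+ replicate 2 (adjusted p = 0.00965).

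Smad6 read 9.56, 9.48, 9.47 and 9.22 in XY controls, 9.39, 9.32, 10.24 and 9.84 in XY FOXL2+, and 9.37, 9.45, 9.40 and 9.37 in XX controls. The controls of both sexes overlapped (difference -0.03, SE 0.17, adjusted p = 0.944), and XY FOXL2+ replicates 3 and 4 lay above every control array. As a group XY FOXL2+ did not pass against XY controls (0.27, adjusted p = 0.422) or XX controls (0.30, adjusted p = 0.38). Smad6 and the Msx genes thus divided the XY FOXL2+ arrays at the same place, with replicates 3 and 4 high in Smad6 and low in Msx1 and Msx2.

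The place of each array between the control groups was set as 0 at the XY control mean and 1 at the XX control mean, for the 8 members called in the sex difference. On average XY FOXL2+ stood at 1.38 for Id3, 0.88 for Id2, 0.60 for Smad7, 0.40 for Bmp2, 0.36 for Msx2, 0.25 for Msx1, 0.21 for Id1 and 0.07 for Bmp4. For Bmp2, Msx1 and Msx2 the XY control mean lies at the level where silent genes read. Their places therefore cannot be ranked against those of the other genes. The mean place of Msx2 is a lower bound. That of Bmp2 is one only if its XY FOXL2+ signals, 6.27 on replicate 3, lie above that level. For Msx1 the XY FOXL2+ mean (6.13) lies at that level too, so its place may be too high or too low. Replicate 2 had the highest place of its group for Smad7 (1.12), Msx2 (0.70), Msx1 (0.60), Bmp4 (0.59), Bmp2 (0.57) and Id1 (0.49), and the lowest for Id2 (0.75) and, with replicate 4, for Id3 (1.00 each). Replicates 3 and 4 stood at 0.08 and 0.00 for Msx1 but at 0.93 and 0.91 for Id2. Foxl2 itself stood at 1.09, 1.54, 0.86 and 0.65 on replicates 1 to 4. The descending order of replicates 2, 1, 3 and 4 in Foxl2 was also that of Msx1 and Msx2, as a description over 4 arrays. It was the order on the first principal component over all clusters too (-39.1, -20.3, 21.3 and 23.1, from the XX side). The order is therefore not particular to these genes.

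**Figure D3:**
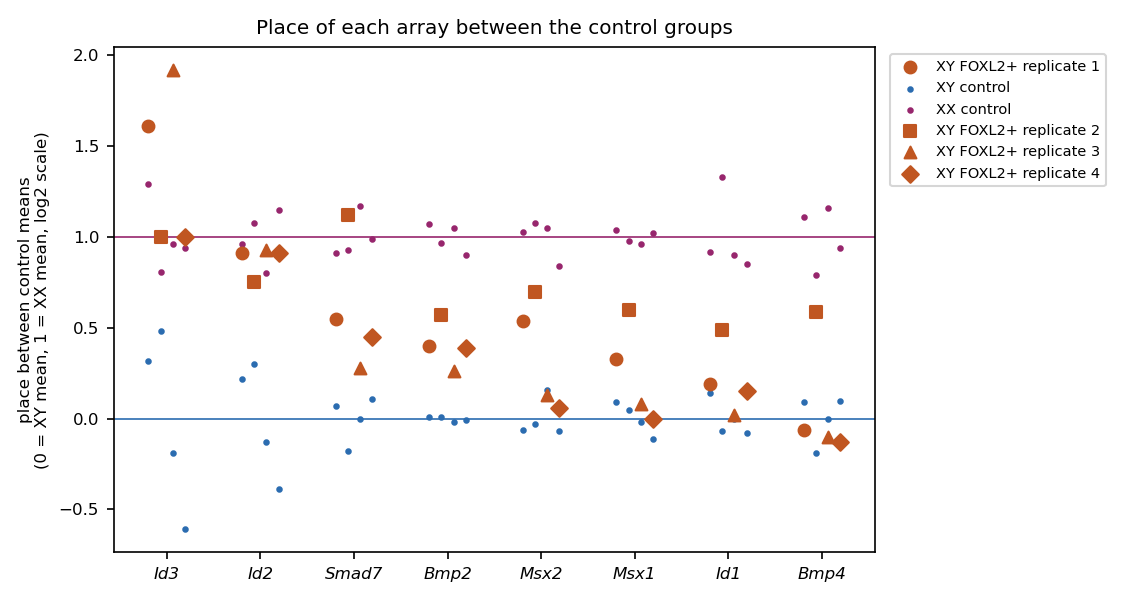
Place of each array (vertical axis, 0 at the XY control mean and 1 at the XX control mean, computed on the log2 scale) for the 8 genes called in the sex difference. Large marks are the 4 XY FOXL2+ arrays, 1 shape for each replicate, and small dots the control arrays; all XY FOXL2+ arrays stand at 0.75 or above for Id2 and Id3, while for Msx1 they run from 0.00 to 0.60.

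The other genes of the pathway were read from 6 lists grouped by role, 63 genes of which 60 had a cluster of their own. Of these 60, FOXL2 left 6 above and 6 below XY controls, the sex difference had 11 higher and 12 lower in XX, and 7 were above and 8 below XX controls in XY FOXL2+. In the same order, 2.46% and 4.67%, 7.17% and 10.2%, and 2.87% and 2.64% of all clusters were called. Their median differences were 0.05, -0.02 and 0.08. The pathway as a whole thus had calls in both directions in each comparison.

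**Figure D4:**
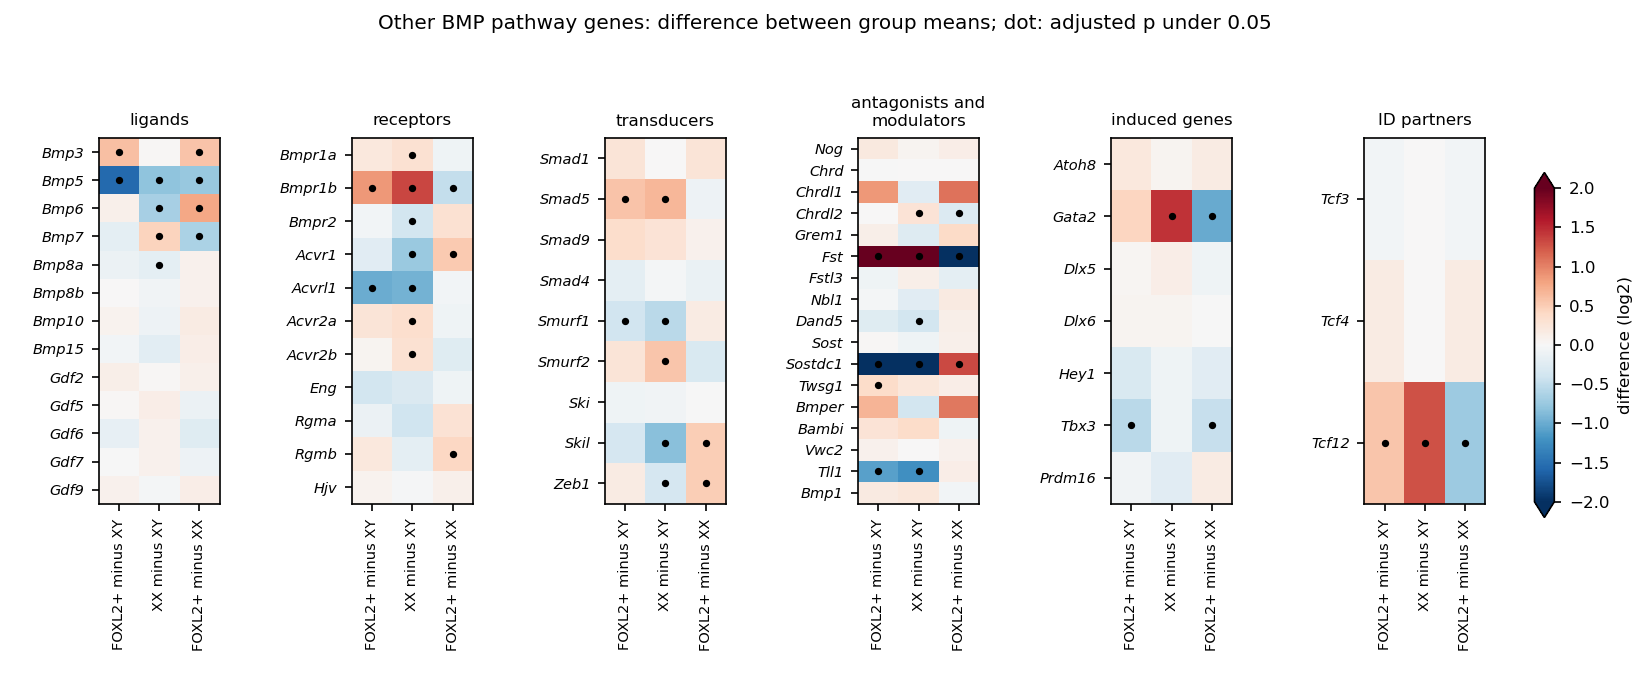
Difference between group means (log2, colour, red higher and blue lower; values beyond 2 take the end colour) of 60 BMP pathway genes in the 3 comparisons, in 6 panels by role. A dot marks an adjusted p under 0.05; the strongest colours are those of Fst (2.80 in XY FOXL2+ minus XY control) and Sostdc1 (-2.54).

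Among 13 other ligands, Bmp5 fell below both control groups. It read 8.63, 9.04, 8.61 and 8.62 in XY controls, 7.25, 7.31, 7.15 and 6.95 in XY FOXL2+, and 8.0, 7.86, 7.94 and 7.90 in XX controls, with no overlap between any groups. The differences were -1.56 from XY controls (SE 0.11, adjusted p = 2.79e-06, 2.95-fold) and -0.76 from XX controls (adjusted p = 0.00201), and XX was below XY by -0.80 (adjusted p = 0.000249). Bmp3 was higher in XY FOXL2+ than in XY (0.60, adjusted p = 0.0224) and XX controls (0.57, adjusted p = 0.0355). It lay near the level of silent genes, and these calls ended without several single arrays (adjusted p up to 0.07 without XY control replicate 1, 3 or 4 or XY FOXL2+ replicate 2 or 4, and up to 0.105 against XX). Bmp6 did not pass against XY controls, with 9.05 ± 0.36 in XY FOXL2+ against 8.95 ± 0.14 in XY and 8.29 ± 0.12 in XX controls (0.77 above XX, adjusted p = 0.0116). Bmp7 was 0.64 below XX controls (difference -0.64, adjusted p = 0.0127), and its sex difference of 0.45 (adjusted p = 0.0305) ended without any one of 6 single arrays (up to 0.0892). Bmp8a passed in the sex difference alone (-0.19, adjusted p = 0.0448; up to 0.121 without any one of 10 arrays), at 5.02 to 5.32, below the level of silent genes.

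Of 11 receptors and co-receptors 1 rose and 1 fell with FOXL2. Bmpr1b, a type I receptor for BMP ligands, read 6.90, 6.83, 7.02 and 7.02 in XY controls, 7.73, 7.54, 7.93 and 8.04 in XY FOXL2+, and 8.49, 8.15, 8.04 and 8.46 in XX controls. XY FOXL2+ lay above all XY controls (0.87, SE 0.13, adjusted p = 0.0012), beside a sex difference of 1.34 (adjusted p = 1.59e-05). Acvrl1, the endothelial type I receptor ALK1, fell from 8.89 ± 0.12 to 7.89 ± 0.15, against 7.95 ± 0.09 in XX controls (-1.0, adjusted p = 3.28e-05; sex difference -0.94). Its co-receptor Eng did not pass (-0.36, adjusted p = 0.0704; without XY FOXL2+ replicate 4, 0.0376). Of the 8 endothelial markers given above 3 were higher and none lower in this comparison, and why Acvrl1 ran the other way was not tested. Acvr1 was lower in XX than in XY controls (-0.74, adjusted p = 0.00184). Bmpr1a (0.30), Acvr2a (0.34) and Acvr2b (0.30) were slightly higher and Bmpr2 (-0.36) slightly lower in XX, each with adjusted p from 0.0165 to 0.0369, and these 4 calls ended without 3 to 7 single arrays (up to 0.0963). Rgmb was higher in XY FOXL2+ than in XX controls (0.41, adjusted p = 0.00653).

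Among 9 transducers and co-factors, Smad5, which carries the BMP signal, rose by 0.57 (SE 0.11, adjusted p = 0.0065), from 11.93 ± 0.15 to 12.50 ± 0.17, against 12.60 ± 0.11 in XX controls (sex difference 0.67, adjusted p = 0.00077). Its partners Smad1 (0.26, adjusted p = 0.0671), Smad9 (0.35, 0.288) and Smad4 (-0.19, 0.308) did not pass. Smurf1, a ubiquitin ligase that removes BMP SMADs, was lower in XY FOXL2+ (-0.38, adjusted p = 0.0283; up to 0.0796 without XY control replicate 1, 2 or 4 or XY FOXL2+ replicate 2) and in XX (-0.54, adjusted p = 0.0012). Smurf2 was higher in XX (0.56, adjusted p = 0.000321), and Skil, a SMAD co-repressor, was lower there (-0.83, adjusted p = 0.000668). Zeb1, a zinc-finger repressor, was lower in XX than in XY controls (-0.33, adjusted p = 0.0292; up to 0.0914 without any one of 6 arrays) and higher in XY FOXL2+ than in XX (0.49, adjusted p = 0.0104).

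Of 17 secreted or membrane modulators 2 rose and 2 fell with FOXL2. Sostdc1, a secreted antagonist of BMP and WNT ligands, read 11.22, 11.38, 11.77 and 11.49 in XY controls, 8.61, 7.90, 9.60 and 9.61 in XY FOXL2+, and 7.44, 7.61, 7.74 and 7.66 in XX controls. All XY FOXL2+ arrays lay between both control groups, a 5.80-fold fall from XY controls (-2.54, SE 0.31, adjusted p = 0.000233) beside a sex difference of -3.85 (adjusted p = 3.91e-06). Fst, follistatin, which binds activins and some BMPs, read 10.03, 11.24, 8.27 and 8.21 in XY FOXL2+, between 6.40 to 6.78 in XY and 12.20 to 12.55 in XX controls. Tll1, a protease that frees BMPs from chordin, fell by 1.08 (adjusted p = 4.62e-06) and ended at the level of silent genes, so the fall is a lower bound. Twsg1, a modulator of chordin, rose by 0.37 (adjusted p = 0.0241; up to 0.0783 without XY control replicate 1, 3 or 4). The antagonists Nog (0.19, adjusted p = 0.296), Chrd (-0.01, 0.976) and Grem1 (0.12, 0.647) and the pseudoreceptor Bambi (0.28, 0.359) did not pass. Nog (5.23 to 5.70) and Grem1 (4.89 to 5.82) lay below the level of silent genes and Chrd (6.34 to 6.57) at its edge. For these antagonists the values thus do not show whether they were expressed. In the sex difference Chrdl2 (0.27, adjusted p = 0.00832) and Dand5 (-0.36, adjusted p = 0.00841) passed as well. Chrdl2 lay at 5.14 to 5.59, below the level of silent genes, and Dand5 at 6.36 to 6.86.

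Among 7 further genes that BMP can induce, Gata2 was higher in XX than in XY controls by 1.44 (adjusted p = 7.18e-05) and did not pass in XY FOXL2+ (0.43, adjusted p = 0.17). On replicates 1 to 4 of XY FOXL2+ it read 7.86, 8.30, 7.34 and 7.47, beside an XY control range of 7.24 to 7.42, so that replicates 1 and 2 were the higher ones here too. Tbx3 fell in XY FOXL2+ below XY (-0.54, adjusted p = 0.00146) and XX controls (-0.46, adjusted p = 0.00667), while the controls did not pass against each other (-0.09, adjusted p = 0.577). Of the E proteins that ID proteins bind, Tcf12 was higher in XY FOXL2+ (0.56, adjusted p = 0.0205) and in XX (1.28, adjusted p = 2.71e-05), the first of these not without XY control replicate 3 or 4 (up to 0.061). Tcf3 (-0.05) and Tcf4 (0.16) did not pass.

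The members were also set against each other and against all other named genes by the root mean square difference of their log2 signals over the 12 arrays, each gene centred on its own mean, so that 0 means the same course. Among the 45 pairs of members the closest were Bmp2 with Msx2 (0.23), Msx1 with Msx2 (0.267) and Bmp2 with Msx1 (0.269), and the farthest was Bmp4 with Msx1 (1.418). Of 30565 other genes, those closest to Bmp2 were Ccdc187 and Prkag2 (0.136 each) and Kcnq1 (0.15). For Msx1 they were the WNT response gene Axin2 (0.135), Ptpn4 (0.158) and Olfm1 (0.169), and for Msx2 Gm17660 (0.137), Stim1 (0.142) and Trim7 (0.144). Id2 ran closest to Flrt2 (0.172), Ptpn13 (0.184) and Tshz1 (0.237), Id3 to Col6a6 (0.12), Trf (0.158) and Slc6a14 (0.175), and Id1 to Slc31a2 (0.12), Plch1 (0.121) and Nmnat2 (0.127). Bmp4 ran closest to Sh3bp4 (0.117), Gria4 (0.131) and Slfn9 (0.134), and Smad7 to Igf1r (0.071), Fyn (0.075) and Cald1 (0.084). For Smad6 they were Ltbp2 (0.094), Gm22011 (0.113) and Serpina6 (0.12), and for Id4, which varied little, Catsperz (0.049), Gm16069 and 4930520O04Rik (0.071 each).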

How the data were processed

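Per the labels' protocols, total RNA was isolated with the Picopure kit, checked on a BioAnalyzer, and 100 ng were amplified and labelled with the WT Plus kit. The authors deposited 1 table of log-scale signals per array, taken here as log2 from its range of 2.60 to 19.49; the base, background correction, summarization, normalization and the genome build are each not given in the sources used here. The table has no detection calls, and the number of arrays limits the precision. Of 72688 entries, 6732 control probe sets were left out. Gene symbols are those of GEO's platform annotation, with old ones replaced through RefSeq: 31258 clusters have 1 symbol, 1492 several and 33206 none listed. Of a gene's several clusters, that with the highest mean over 12 arrays was used.

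limma 3.58.1 (R 4.3.3; lmFit, eBayes with an intensity trend) was fitted to all 12 arrays (9 residual degrees of freedom), with two-sided tests adjusted by Benjamini-Hochberg over 65956 clusters. The procedure was tested on simulated data. The labels call the samples biological replicates, 1 pair of gonads each. The members, the pathway and marker lists and the rule for naming genes (all members, pathway genes that passed in any comparison, and the 3 genes most like each member) were chosen with earlier results of these data known. Insl3, Egfl7 and Pdgfra of the marker lists had no cluster named for them alone. Results for other marker lists, as mean log2 signals on XY control, XY FOXL2+ and XX control arrays, were 15.78 to 16.17, 7.91 to 11.17 and 7.83 to 8.07 for fetal Leydig cells, 12.07 to 12.31, 11.00 to 11.80 and 10.58 to 10.93 for interstitial cells, 6.76 to 7.67, 5.57 to 6.49 and 5.54 to 5.65 for male germ cells, 8.64 to 8.90, 8.82 to 9.26 and 9.39 to 9.47 for surface epithelium, 6.19 to 6.45, 6.32 to 6.93 and 6.95 to 7.30 for mesonephros, and 9.98 to 10.42, 8.57 to 9.12 and 8.45 to 8.90 for smooth muscle. Alternatives were other normalizations, variance models, weights, a signal filter, only the groups compared, a replicate block, other rows of a gene, exact permutation and omission of arrays.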

Additional observations from a re-analysis of the deposited data

Results flagged for a closer look

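In 147 groups of 4 arrays (49 genes in 3 groups), 8 held an array whose gap to the nearest other, divided by the group's range, exceeded Dixon's critical value; chance flags about 1 in 20 such groups. Of these, 3 were on XY FOXL2+ replicate 2: Bmp4 read 7.70 there against 8.43 to 8.51 on the other arrays of its group, Id2 read 13.93 against 14.16 to 14.19, and Smurf2 read 12.31 against 12.06 to 12.09. On XX control replicate 2, Id1 read 11.95 against 11.46 to 11.54 and Chrdl2 read 5.59 against 5.44 to 5.45. On XY control arrays, Msx2 read 6.63 on replicate 3 against 6.27 to 6.32, and Bmp5 read 9.04 on replicate 2 against 8.61 to 8.63. Grem1 read 5.82 on XY FOXL2+ replicate 4 against 5.20 to 5.27.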

How the results depend on the processing

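Of 680 alternative values for single members, 659 kept direction and side of the threshold, 16 lost and 5 gained a call, and none turned a called direction. Of 2634 for the pathway genes named, 143 lost and 65 gained a call and 1 turned: the sex difference of Acvr2b was -0.02 (adjusted p = 0.949) in its other cluster. Members lower with FOXL2 numbered 0 in place of 1 with only the 2 groups compared, after quantile normalization and with the replicate block, and 0 to 1 without single arrays (Smad7 in each case). Members higher with FOXL2 numbered 3 to 4 without single arrays and 5 without XY FOXL2+ replicates 3 and 4, an omission chosen after seeing the data. Members higher in XY FOXL2+ than in XX controls numbered 2 in place of 1 with array weights, and 1 to 2 without single arrays (Smad7). In the sex difference 5 to 6 were higher and 2 lower without single arrays. No clear pairing of arrays by replicate number was seen. Deviations of same-numbered arrays correlated at -0.09 to 0.18, 2 of 12 pairs over 0.1, and 7 of 24 array comparisons were best with the own number. The labels do not say whether equal numbers share a litter or day, and low correlations do not settle it. The block moved the calls over all clusters from 4698 to 4356 with FOXL2. With FOXL2 the calls numbered 2700 when the fit held just those groups, 8318 without XY FOXL2+ replicates 3 and 4 and 3124 to 5392 without single arrays. Against XX they numbered 3635, and in the same order 1916, 1855 and 2012 to 5992, and 6752 with array weights. Higher calls were 34.5% of all calls with FOXL2 and 45.1% after quantile normalization; in the sex difference 41.3%, and 53.2% and 50.9% after quantile normalization and median centring; against XX 52.0%, and 41.5% after centring. Some further calls against XX ended without single arrays: Acvr1 (0.52, up to 0.125), Bmpr1b (-0.48, up to 0.141), Skil (0.49, up to 0.143), Chrdl2 (-0.27, up to 0.0869) and Sostdc1 (1.32, up to 0.0765), where values in brackets are the difference and adjusted p. Gained without 1 XY FOXL2+ array were Smurf2 with FOXL2 (0.0454), Smurf2 (0.0107), Smad1 (0.0426), Grem1 (0.0441) and Bmpr2 (0.0485) against XX, and Grem1 in the sex difference (0.0156).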

Other observations

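Besides Smad6, 6 of the 60 other pathway genes (Bmp6, Rgma, Smad9, Chrd, Chrdl1 and Bmper) lay above every control array on XY FOXL2+ replicates 3 and 4 and not on replicates 1 and 2, as did 3.41% of all clusters. Bmper, a secreted BMP-binding protein, read 7.83, 7.53, 9.35 and 9.29 on replicates 1 to 4, against 7.68 to 7.95 in XY and 7.33 to 7.58 in XX controls. Chrdl1, a chordin-like BMP antagonist, read 6.36, 6.22, 8.07 and 8.25, against 6.05 to 6.84 and 6.09 to 6.16. Smad9 read 6.93, 6.77, 7.75 and 7.39, against 6.70 to 7.0 and 7.09 to 7.16. Rgma, a BMP co-receptor, read 7.81, 7.86, 8.51 and 8.51, against 8.13 to 8.46 and 7.75 to 8.01. Bmp6 read 8.85, 8.65, 9.29 and 9.41, against 8.80 to 9.14 and 8.10 to 8.38. Chrd differed little, at 6.34, 6.49, 6.52 and 6.57 against 6.46 to 6.51 and 6.43 to 6.51. None of the 6 passed as a group against XY controls (adjusted p from 0.242 to 0.976, with 0.288 for Bmper, 0.242 for Chrdl1 and 0.288 for Smad9; with array weights 0.0338, 0.0271 and 0.0429). Against XX controls Bmper passed without XY FOXL2+ replicate 1 or 2 (0.0454 and 0.0105) and Chrdl1 without replicate 2 (0.0303). These genes were chosen after their values were seen, for being high on replicates 3 and 4 and not on 1 and 2. The array weights were 0.3 and 0.51 on XY FOXL2+ replicates 1 and 2, and 1.12 and 1.18 on replicates 3 and 4. Passes with replicate 1 or 2 left out or given less weight are thus not independent of that choice.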
